A study of Saccharomyces cerevisiae with 72 samples.

Results

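Wild type budding yeast (Saccharomyces cerevisiae) was followed over the first 20 min of treatment with 50 mM 3-amino-1,2,4-triazole (3-AT). The course was chosen by its array titles: every array that sets 3-AT treated wild type against untreated wild type of the same minute was taken, at 2, 4, 6, 10, 15 and 20 min. This gave 12 of the 72 two-colour arrays of the series, 2 per minute with the dyes exchanged. The 2 arrays of a minute were averaged, so the course has 6 pairs, 1 per minute. The groups are wild type in 50 mM 3-AT and its matched untreated wild type. A second course of 12 arrays with the same minutes and dose, the gcn2 deletion in 50 mM 3-AT over its matched untreated gcn2 deletion, is used for comparison, together with 12 arrays that set the treated gcn2 deletion directly against treated wild type. A further 12 arrays set the splicing mutant prp8-1 over wild type at 37 °C, with YPD medium named for the mutant. They were used to tell intron from exon probes. For the 3-AT courses the sources used here give no strain background, medium or growth temperature, and no label states that the minutes came from separate cultures. The p-values below therefore measure how much the minutes of 1 course scatter, and that scatter may be technical.

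3-AT inhibits His3, an enzyme of histidine synthesis, so that treated cells run short of histidine. Uncharged tRNA then activates the kinase Gcn2, which phosphorylates the initiation factor eIF2, lowers general translation and raises translation of Gcn4, the activator of many amino acid synthesis genes. In yeast most genes lack introns, while many ribosomal protein genes carry an intron and give a large share of the RNA that passes through the spliceosome. An intron probe reads unspliced RNA or released introns, a junction probe reads spliced RNA, and an exon probe reads both. Subtracting the log2 ratio of the exon probe from that of the intron probe gives the intron minus exon index, and subtracting it from that of the junction probe gives the junction minus exon index. The level of a gene is the log2 ratio of its exon probe or, without an intron, of its single probe. All values are log2 ratios of treated over untreated wild type unless another comparison is named, and values by minute are given in the order 2, 4, 6, 10, 15 and 20 min.

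The slide carried 1457 named probes for 982 genes, of which 228 had an intron, a junction and an exon probe and 975 had a level. Of the 228 genes, 97 encode ribosomal proteins. The junction probe of each gene was assigned by slide position alone, without a check in the prp8-1 arrays. Intron and exon probes were told apart by slide position and by the prp8-1 arrays. There the intron probe stood above the exon probe in 217 of the 228 genes (95.18%). HNT1, NOG2, RPL23A and RPL6B clearly went against it, and their probe kinds are uncertain. In DBP2, MTR2, APE2, AMA1, UBC12, HOP2 and HFM1 the probes differed by less than 0.6 in the opposite direction. The largest such difference was -0.57 in AMA1. The kinds of these genes rest on slide position alone. Arrays of exchanged dyes correlated over all probes with r = 0.18, 0.52, 0.71, 0.80, 0.84 and 0.85, so 2 min is the least certain of the minutes. The number of probes at 0.5 or more in size was 15, 93, 141, 244, 308 and 323 of 1457. The direction, treated over untreated, follows the labels. In the same table GCN2 stood between -4.68 and -3.88 in the gcn2 deletion over wild type, as the labels give it. The brightness of the separate channels was not used, and precision is limited by how few arrays there are per minute.

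The intron signal of ribosomal protein genes rose within the first minutes, and its median was lower again at 15 and 20 min. Over all 228 genes, 157 indices (68.9%) passed limma with Benjamini-Hochberg adjustment at 0.05, 132 of them higher (57.9%) and 25 lower (11%). Among the 97 ribosomal protein genes 73 rose, 2 fell and 22 did not pass, with a median of 0.33 against 0.19 over all 228 genes. The median index of the ribosomal protein genes was 0.25, 0.36, 0.46, 0.44, 0.20 and 0.21. That of the 131 other genes was 0.03, 0.04, 0.08, 0.14, 0.12 and 0.19. The ribosomal protein genes were thus highest at 6 and 10 min, while the other genes were highest at 20 min. The slope of the index over the minutes passed in 48 of 228 genes (21.1%), 33 rising (14.5%) and 15 falling (6.58%). It passed in 27 without the 4 min pair and in 28 without the 20 min pair, of which 7 and 5 fell. The 48 were 3 rising and 10 falling among the ribosomal protein genes and 30 rising and 5 falling among the others. At 2 min 51 of 97 ribosomal protein genes and 9 of 131 others had an index of 0.25 or more, at 6 min 71 and 25, and at 20 min 43 and 59. The highest of the 6 minutes was 10 min in 44 of the 97 ribosomal protein genes and 20 min in 7 of them, against 16 and 43 of the 131 others.

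The early rise was seen in both dye orders. With treated RNA in Cy5 the median ribosomal protein index was 0.23, 0.24, 0.50, 0.49, 0.26 and 0.23, and 88 of 97 genes were above 0 at 2 min. With treated RNA in Cy3 it was 0.30, 0.50, 0.36, 0.43, 0.14 and 0.18, with 89 of 97 above 0 at 2 min. The other genes stood near 0 at 2 min in both dye orders, at 0.02 and -0.01.

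**Figure D1:**
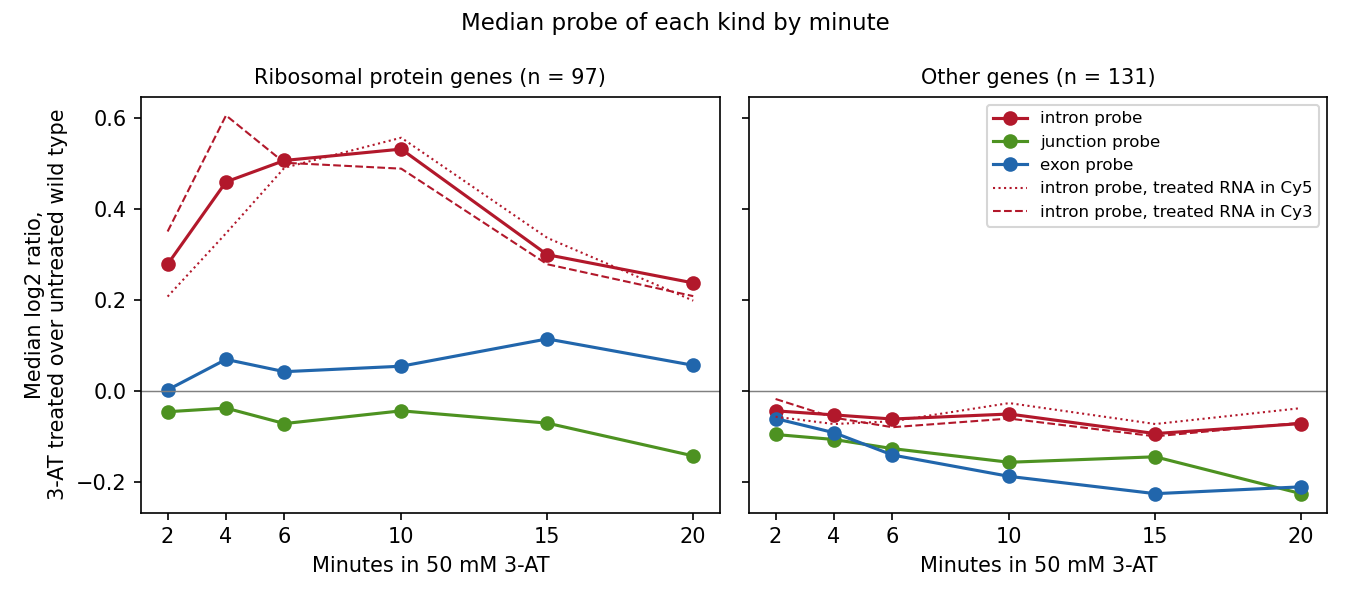
Median log2 ratio (3-AT treated over untreated wild type, y axis) of intron, junction and exon probes by minute (x axis) in 97 ribosomal protein genes (left) and 131 other genes with introns (right). Each point is 1 dye-swapped pair, and the thin lines give the intron probe in each dye order. The ribosomal protein intron probe lies between 0.24 and 0.53, while in the other genes the exon probe goes down to -0.23 and the intron probe stays between -0.09 and -0.04.

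The index rises of ribosomal protein genes and of other genes came from different probes. In the ribosomal protein genes the median intron probe was 0.28, 0.46, 0.51, 0.53, 0.30 and 0.24 and the median exon probe 0.00, 0.07, 0.04, 0.06, 0.12 and 0.06. All 73 ribosomal protein genes whose index rose had an intron probe above 0, with a median of 0.45 against 0.04 for their exon probes, and in 69 of them the intron probe was the larger in size. In the other genes the median intron probe was -0.04, -0.05, -0.06, -0.05, -0.09 and -0.07 and the median exon probe -0.06, -0.09, -0.14, -0.19, -0.23 and -0.21. Of the 59 other genes whose index rose, 31 had an intron probe above 0 and 28 below it, with a median of 0.01. Their exon probes were below 0 in 57 of 59, with a median of -0.27, and the level was called lower in 53 of 59. Over all 131 other genes the exon probe was below 0 in 101 and the level was called lower in 78. The index subtracts the exon probe, so choosing genes with a raised index favours high intron and low exon probes. In 9 of the 59 the intron probe was the larger in size. The plot of median probes by minute shows both patterns.

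Raised indices were found in both small-subunit and large-subunit genes. Of 44 small-subunit genes 38 rose and 0 fell, with a median index of 0.36, and of 53 large-subunit genes 35 rose and 2 fell, and the median was 0.26. The small-subunit median by minute was 0.27, 0.39, 0.48, 0.48, 0.25 and 0.24, and the large-subunit median 0.24, 0.35, 0.37, 0.38, 0.14 and 0.18. Both were higher at 6 and 10 min than at 15 and 20 min. In single genes, the mean of 6 and 10 min exceeded that of 15 and 20 min in 85 of 97 ribosomal protein genes by the index and in 91 by the intron probe, against 46 and 67 of the 131 others. These counts are a description of 4 minutes and carry no test.

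The highest index was that of RPS24A, which encodes a small-subunit protein. It was 0.55, 1.22, 1.15, 1.501, 1.31 and 1.35, with a mean of 1.18 ± 0.082 (SE; adjusted p = 1.15e-06). Its intron probe averaged 1.00 and its exon probe -0.18. All 6 minutes were above 0, with the 2 min value the lowest.

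Other small-subunit genes behaved alike. RPS29B, which encodes a small zinc-binding protein of the small subunit, had an index of 0.33, 0.79, 0.95, 1.26, 1.12 and 1.14, with a mean of 0.93 ± 0.077 (SE; adjusted p = 1.31e-06). RPS9B averaged 0.93 ± 0.070 (SE; adjusted p = 1.15e-06), RPS26A 0.92 ± 0.073 (SE; adjusted p = 1.15e-06) and RPS25A 0.82 ± 0.066 (SE; adjusted p = 1.15e-06). In these genes the exon probes lay between -0.10 and 0.15, so the intron probe carried the index. Unlike the median ribosomal protein gene, RPS24A, RPS29B, RPS9B and RPS26A kept an index above 1 at 15 and 20 min.

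Among large-subunit genes RPL20B had an index of 0.36, 0.75, 1.01, 1.16, 0.91 and 0.53, with a mean of 0.79 ± 0.092 (SE; adjusted p = 1.42e-05). It was highest at 10 min and lowest at 2 min. RPL7A, whose intron hosts a small nucleolar RNA, averaged 0.78 ± 0.061 (SE; adjusted p = 1.15e-06), with its intron probe at 0.53 and its exon probe at -0.25. RPL30, whose protein binds its own pre-mRNA and blocks its splicing, averaged 0.64 ± 0.082 (SE; adjusted p = 2.84e-05) with 0.28, 0.62, 0.56, 1.02, 0.40 and 0.97 by minute. Its value dropped at 15 min and was high on both sides of it.

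In some ribosomal protein genes the intron probe was high and the index did not show it, because the exon probe was high as well. RPL22B, the less expressed of the RPL22 copies, had an intron probe of 0.54, 1.07, 1.06, 1.27, 0.77 and 0.70 and an exon probe of 0.35, 0.93, 0.72, 1.03, 1.16 and 0.77, while its junction probe was -0.17, -0.09, -0.22, 0.05, 0.02 and -0.26. Intron and exon probes were above 0 at every minute and the junction probe stayed close to 0. Its intron minus exon index averaged 0.08 ± 0.071 (SE; adjusted p = 0.364) and did not pass. Its junction minus exon index was the lowest of all, -0.93 ± 0.063 (SE; adjusted p = 8.91e-05), at -0.51, -1.01, -0.93, -0.98, -1.15 and -1.02 by minute.

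RPS9A showed the same arrangement, with a mean of 0.56 for the intron probe, 0.51 for the exon probe and -0.03 for the junction probe. Its junction minus exon index fell by 0.54 on the log2 scale (SE 0.050, adjusted p = 3.07e-04). Its intron minus exon index averaged 0.05 ± 0.049 (SE; adjusted p = 0.382), and stood at -0.23 (adjusted p = 0.00706) with treated RNA in Cy5 and at 0.33 (adjusted p = 0.00049) with treated RNA in Cy3, so no direction is given for it. RPS27A had its intron probe at 0.43, its exon probe at 0.50 and its junction probe at -0.03. RPL18B differed, since its exon probe was at 0.46 and its intron probe at 0.06, and its index was 0.14, -0.01, -0.23, -0.53, -0.92 and -0.81 by minute, which fell to a mean of -0.39 ± 0.061 (SE; adjusted p = 1.12e-04). Over all 97 ribosomal protein genes, the level rose and the junction minus exon index fell in 27, and all 27 had an intron probe above 0. Among the 131 others this held for 12, of which 4 had an intron probe above 0. Both measures use the exon probe, so a high exon reading favours both calls. Most of the 97 intron probes were above 0 in any case. At 10 min 96 were with treated RNA in Cy5 and 87 in Cy3, against 59 and 50 of the 131 others. The junction minus exon calls also depended on the dye order, as given below.

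**Figure D2:**
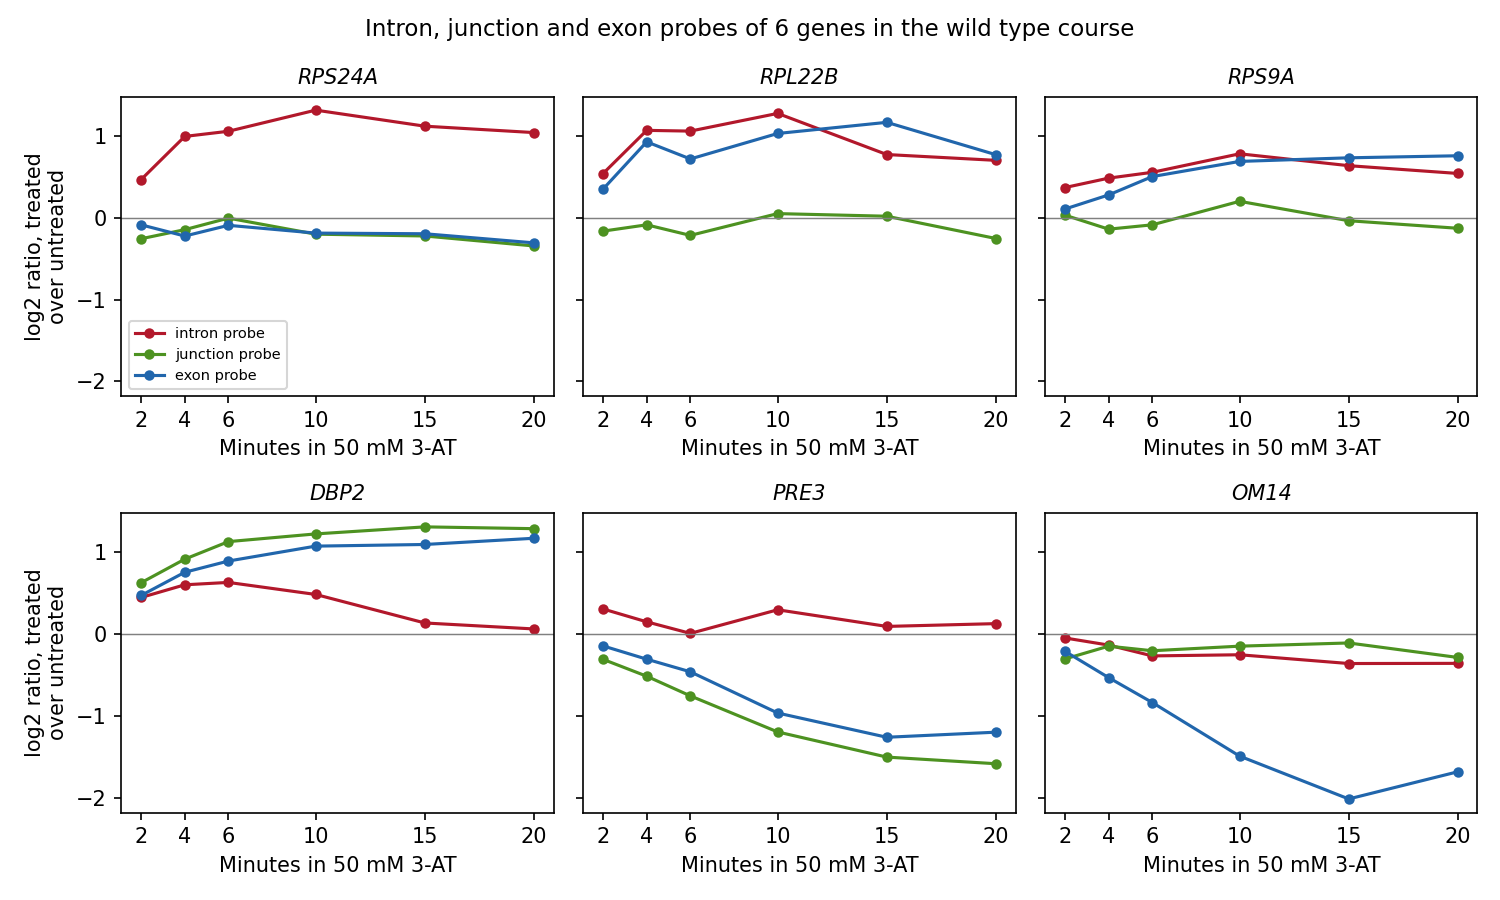
Log2 ratio (y axis) of the intron, junction and exon probe of 6 genes by minute in 3-AT (x axis), 1 dye-swapped pair per point. In RPS24A the intron probe stands apart, in RPL22B and RPS9A the intron and exon probes lie together above the junction probe, in DBP2 the intron probe returns to 0.06 by 20 min, and in PRE3 and OM14 the exon probe goes down.

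The junction minus exon index as a whole depended on the dye order. It passed in 112 of 228 genes (49.1%), 30 higher (13.2%) and 82 lower (36.0%). With treated RNA in Cy5 the calls were 22 higher and 102 lower, and with treated RNA in Cy3 they were 49 higher and 47 lower. The median over ribosomal protein genes was -0.14, -0.19, -0.19, -0.20, -0.24 and -0.22 in the first case and 0.01, 0.00, -0.05, 0.00, -0.02 and -0.04 in the second. The excess of lower values was measured in 1 dye order. The index of RPL22B was -0.93 with treated RNA in Cy5 and -0.94 with treated RNA in Cy3.

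Single genes with large junction changes were found in both directions. Besides RPL22B the lowest were MPT5, a Puf-family regulator of mRNA (-0.67), RPL18B (-0.60), QCR10 of the respiratory chain (-0.56) and RPL33B (-0.54). The highest were OM14, described below, at 0.93, and ARP2, an actin-related protein of the Arp2/3 complex, at 0.71 ± 0.067 (SE; adjusted p = 3.07e-04), and its values by minute were 0.13, 0.55, 0.33, 0.83, 1.26 and 1.16. Its exon probe fell to -0.67 while its junction probe stood at 0.05. NHP6B, a chromatin protein, followed at 0.63, and LSB3, an actin patch protein, at 0.46, a call lost with treated RNA in Cy5 (0.31, adjusted p = 0.0599).

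Paralogs of ribosomal proteins differed in their intron minus exon index. Yeast has 2 copies of most ribosomal protein genes, and in 41 pairs both copies had an index. The difference between the copies passed in 28 of 41 pairs (68.3%), 15 with the first copy higher (36.6%) and 13 with the second copy higher (31.7%). The RPL6 pair is among those that passed and the RPL23 pair among those that did not. The probe kinds of RPL6B and RPL23A are uncertain, so both differences are too. The copies differed more in the intron probe than in the exon probe in 20 of the 28, and in 28 of all 41 pairs. Near-identical copies can share the signal of an exon probe, which would make exon differences too small.

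RPS26A exceeded RPS26B by 0.24, 0.82, 0.82, 1.39, 1.60 and 1.39, a mean of 1.04 ± 0.080 (SE; adjusted p = 1.55e-10). The intron probes were at 0.84 in RPS26A and 0.12 in RPS26B, and the exon probes at -0.08 and 0.24. RPS24A exceeded RPS24B by 0.91 ± 0.066 (SE; adjusted p = 9.04e-11), with intron probes at 1.00 and 0.41. In both pairs the A copy was higher at every minute.

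RPL34A exceeded RPL34B by 0.62 ± 0.072 (SE; adjusted p = 1.21e-07), and nearly all of it lay in the intron probes, which stood at 0.52 and -0.12. RPL42A exceeded RPL42B by 0.62, also mostly in the intron probes. RPL7A exceeded RPL7B by 0.70, with a difference of 0.28 between the intron probes and a larger one of -0.42 between the exon probes. RPL33A exceeded RPL33B by 0.62, with 0.33 between the intron probes and -0.29 between the exon probes. The order was turned round in other pairs. RPS9A minus RPS9B was -0.18, -0.49, -0.88, -1.16, -1.16 and -1.38, a mean of -0.88 ± 0.071 (SE; adjusted p = 3.37e-10). Both intron probes were high there, 0.56 in RPS9A and 0.95 in RPS9B, and the exon probe of RPS9A was high too. RPS29A minus RPS29B was -0.59 ± 0.068 (SE; adjusted p = 1.10e-07), and RPL13A minus RPL13B -0.52.

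**Figure D3:**
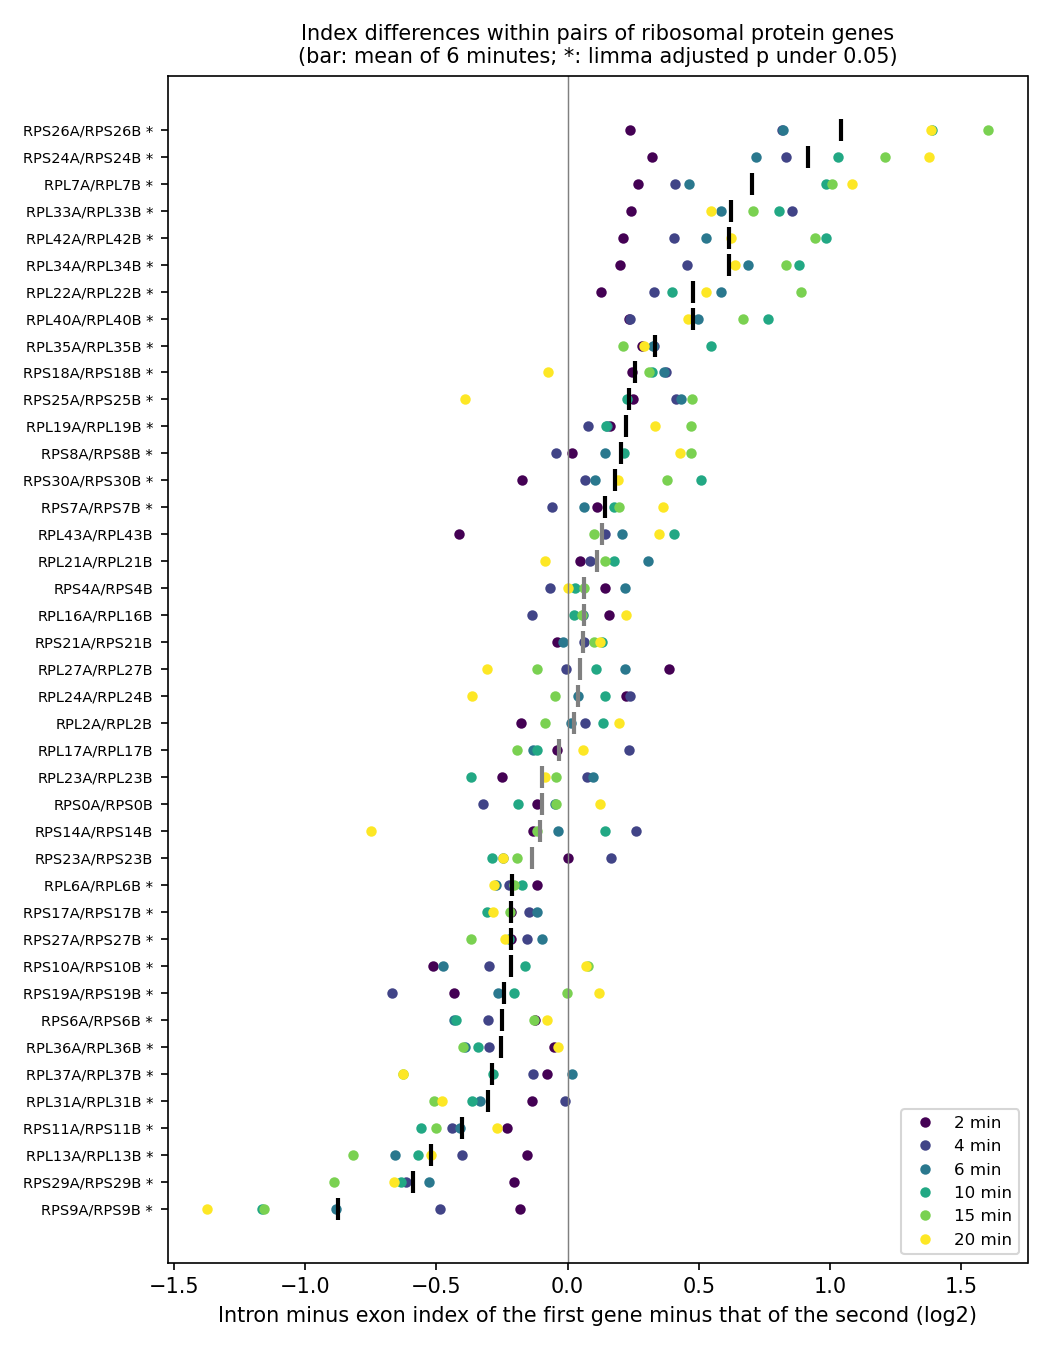
Difference in the intron minus exon index (log2, x axis) between the 2 copies of 41 ribosomal protein gene pairs, first gene minus second. Points are the 6 minutes, bars their mean, and an asterisk marks the 28 pairs past an adjusted p of 0.05. The RPS26 pair is at the top with 1.04 and the RPS9 pair at the bottom with -0.88.

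Among the other intron-containing genes the 3 described here combined a raised index with a fallen level. OM14, an outer mitochondrial membrane protein, had an index of 0.16, 0.40, 0.57, 1.24, 1.65 and 1.32, a mean of 0.89 ± 0.087 (SE; adjusted p = 4.46e-06). Its exon probe was -0.21, -0.53, -0.84, -1.49, -2.02 and -1.68, its intron probe averaged -0.24 and its junction probe -0.20, so the exon and junction probes of this gene disagree. PRE3, a catalytic subunit of the proteasome, had an index of 0.89 ± 0.073 (SE; adjusted p = 1.31e-06). In PRE3 both the exon and the junction probe went down, to -0.73 and -0.98, and the intron probe stood at 0.16. PHO85, a cyclin-dependent kinase of phosphate and carbon metabolism, was similar, with an index of 0.81 ± 0.060 (SE; adjusted p = 1.15e-06), an exon probe at -0.77, a junction probe at -0.94 and an intron probe at 0.04. Over the 59 other genes with a raised index, 53 had a junction probe below 0, with a median of -0.20. The same held for 17 of the 23 with a lowered index and 40 of the 49 not called, so it was common to the other genes. At 2 min 25 of all 131 junction probes were above 0 with treated RNA in Cy5 and 66 with treated RNA in Cy3, and at 20 min 28 and 34.

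Many genes of the cytoskeleton, transport, proteasome and mitochondria with introns fell in level. Of 8 actin and cytoskeleton genes 0 rose and 6 fell, among them ARP2 (-0.67) and the fimbrin gene SAC6 (-0.60). Of 15 vesicle transport genes 1 rose and 11 fell, among them SAR1, a GTPase of vesicle budding (-0.57). Of 10 ubiquitin and proteasome genes 1 rose and 6 fell, and of 8 mitochondrial protein genes 0 rose and 7 fell, among them the respiratory chain genes COX4 (-0.35) and QCR10 (-0.36). All 131 other intron-containing genes together had 17 higher and 78 lower levels with a median of -0.16, against 351 (36.0%) higher and 305 (31.3%) lower levels among all 975 genes with a median of 0.02. The 97 ribosomal protein genes with introns had 38 higher and 14 lower levels with a median of 0.06.

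The index fell in 23 of the 131 other genes. Choosing genes with a low index favours low intron probes, and the median intron probe of all 131 was below 0 at every minute. In 20 of the 23 genes the intron probe was below 0. DBP2, an RNA helicase whose intron takes part in its own regulation, was an exception, with an intron probe above 0 at every minute. Its intron probe was 0.44, 0.60, 0.63, 0.48, 0.13 and 0.06, its exon probe 0.47, 0.75, 0.89, 1.07, 1.09 and 1.17 and its junction probe 0.62, 0.91, 1.13, 1.22, 1.31 and 1.28. All 3 probes were above 0 at 2 min, and the intron probe later returned towards 0 while the exon and junction probes stayed high. The index was -0.03, -0.15, -0.26, -0.59, -0.96 and -1.11, with a slope of -0.064 ± 0.008 per min (SE; adjusted p = 3.95e-04). Exchanged probe kinds, which prp8-1 does not settle for DBP2, would turn its sign. IMD4, an IMP dehydrogenase whose intron hosts a small nucleolar RNA, went the same way, with a slope of -0.063 ± 0.012 per min (SE; adjusted p = 0.00412) and an index of 0.27, -0.28, -0.57, -0.73, -1.03 and -0.998. Smaller falls were measured in ACT1, the actin gene (-0.25), in YRA1, an mRNA export factor that limits its own splicing (-0.25), and in SMD2 of the Sm ring (-0.40). The call of ACT1 was lost with treated RNA in Cy5 (-0.10, adjusted p = 0.281). The index of NOG2, a GTPase of large-subunit assembly, was lowest of all at -1.11, but its probe kinds are uncertain, and exchanged kinds would turn its sign.

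Few transcript levels had moved at 2 min. Of 975 levels 656 (67.3%) passed, 351 higher (36.0%) and 305 lower (31.3%), but 331 of the 656 means were under 0.25 in size and 115 were 0.5 or more. At 2 min 3 levels were 0.5 or higher and 5 were -0.5 or lower, at 6 min 55 and 23, and at 20 min 149 and 110. With 2, 4 and 6 min alone 40 genes passed, and with 10, 15 and 20 min alone 569. The slope over the minutes passed in 415 levels (42.6%), of which 244 rose with time (25.0%) and 171 fell (17.5%).

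Most genes of amino acid control rose, and late. Of 12 measured genes 8 rose and 0 fell, where 36.0% of all 975 levels rose and 31.3% fell. The median of the 12 genes was 0.25. The median by minute was -0.01, -0.06, 0.06, 0.23, 0.44 and 0.72. HIS5, an aminotransferase of histidine synthesis, had -0.03, -0.05, 0.31, 1.25, 2.34 and 3.04, with a mean of 1.14 ± 0.063 (SE; adjusted p = 1.53e-05) and a slope of 0.187 ± 0.010 per min (SE; adjusted p = 4.72e-05), the steepest of all genes. It was near 0 at 2 and 4 min and the highest of all levels at 20 min. HIS4, which codes for an enzyme of several steps of the same pathway, had 0.17, 0.06, 0.37, 1.02, 1.73 and 2.12, with a mean of 0.91 ± 0.054 (SE; adjusted p = 2.06e-05).

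MET28, a cofactor of the activator Met4, had 0.01, 0.09, 0.09, 0.58, 1.76 and 2.48, with a mean of 0.83 ± 0.082 (SE; adjusted p = 1.23e-04). MET22, a phosphatase of sulphate assimilation, had -0.20, -0.20, -0.11, 0.40, 1.37 and 2.05, below 0 until 6 min. MET4 itself averaged 0.51 and HIS2, the histidinol phosphatase gene, 0.27. Without the slope term, which leaves the change over time in the error, the calls of HIS5 (adjusted p = 0.0634), MET28 (adjusted p = 0.084), MET22 (adjusted p = 0.182) and HIS2 (adjusted p = 0.158) were lost. The transcript of GCN4 moved little, at -0.03, 0.15, 0.30, 0.21, 0.30 and 0.46 and a mean of 0.23 ± 0.037 (SE; adjusted p = 0.00114), and its call was lost with treated RNA in Cy3 (0.06, adjusted p = 0.279). GCN5, a histone acetyltransferase, averaged 0.13, but the call was lost in 7 of 13 alternatives and its sign changed in 1. With treated RNA in Cy5 it was 0.04 (adjusted p = 0.538). The upstream regulators GCN1, GCN2, GCN3 and GCN20 did not pass, with means between -0.06 and -0.02.

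**Figure D4:**
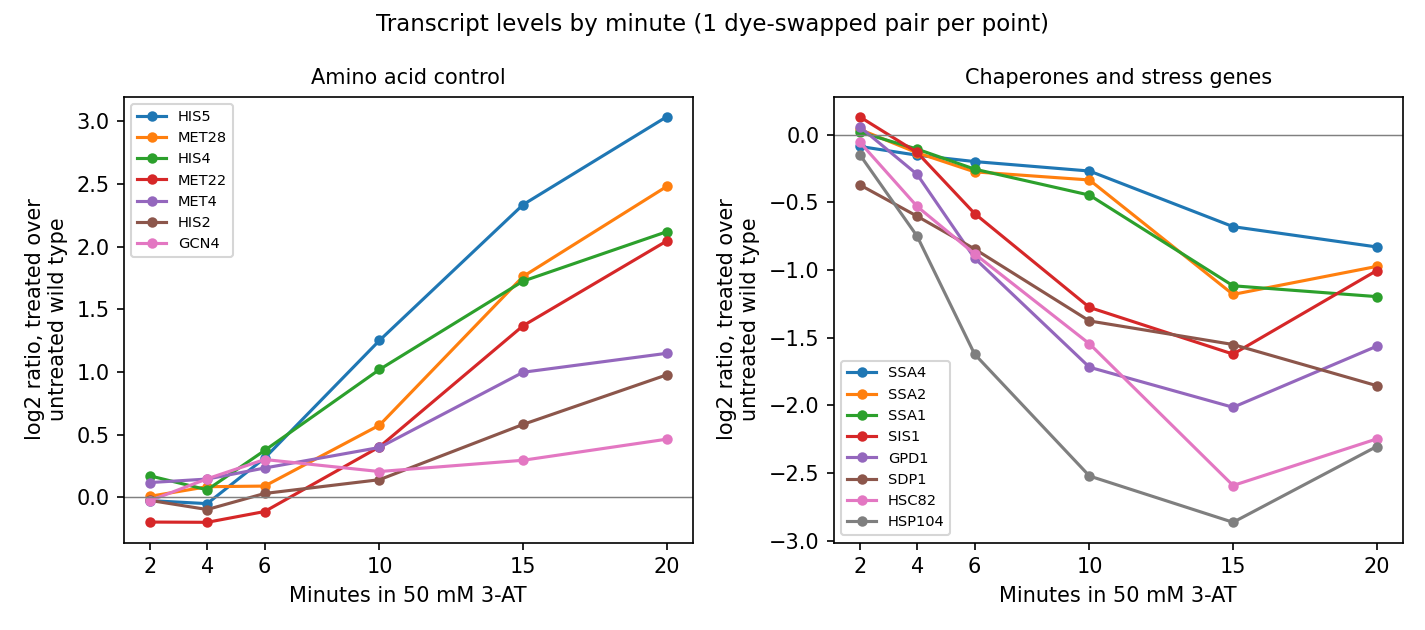
Level (log2 ratio of treated over untreated wild type, y axis) of 7 amino acid control genes (left) and 8 chaperone and stress genes (right) by minute in 3-AT (x axis), 1 dye-swapped pair per point. HIS5 reaches 3.04 at 20 min, and HSP104 reaches -2.87 at 15 min.

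Most chaperone and stress genes fell. Of 13 measured genes 9 fell and 1 rose, where 31.3% of all 975 levels fell and 36.0% rose. The median level of the 13 genes was -0.52, and by minute the median was -0.03, -0.14, -0.28, -0.45, -1.12 and -1.01. HSP104, the disaggregase, had -0.15, -0.75, -1.62, -2.52, -2.87 and -2.31, with a mean of -1.70 ± 0.210 (SE; adjusted p = 3.17e-04). HSC82, a constitutive Hsp90, had -0.06, -0.53, -0.88, -1.55, -2.59 and -2.25, with a mean of -1.31 ± 0.121 (SE; adjusted p = 9.70e-05). Both were lowest at 15 min. The stress phosphatase gene SDP1 (-1.10), the glycerol enzyme gene GPD1 (-1.08), the Hsp40 gene SIS1 (-0.75), the aldehyde dehydrogenase gene ALD3 (-0.68) and the Hsp70 genes SSA1 (-0.52), SSA2 (-0.48) and SSA4 (-0.37) fell too. SSA3 and SSB1 did not pass, at 0.05 and -0.05.

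The exception was the metallothionein gene CUP1-2, the highest mean level, with 0.10, 0.49, 1.65, 1.57, 2.93 and 2.90 and a mean of 1.61 ± 0.144 (SE; adjusted p = 8.34e-05). The probe named CUP1-1, for a nearly identical tandem copy, had -0.10, -0.14, 0.03, 0.23, 0.06 and 0.19 and did not pass. Its mean was 0.26 with treated RNA in Cy5 and -0.17 with treated RNA in Cy3. The 2 probes disagree for copies that arrays can hardly tell apart, so the rise of CUP1 is uncertain.

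Genes that build ribosomes rose early and in nearly every case. Of 38 ribosome assembly genes 35 rose and 2 fell, where 36.0% of all 975 levels rose and 31.3% fell. The list median was 0.47 against 0.02 over all genes. The median was 0.12, 0.30, 0.50, 0.67, 0.66 and 0.57 by minute, above 0 from 2 min on and highest at 10 and 15 min. DHR2, a helicase of small-subunit processing, had 0.26, 0.58, 1.03, 1.495, 1.64 and 1.43, a mean of 1.07 ± 0.106 (SE; adjusted p = 1.24e-04). DBP2 averaged 0.91, DBP8, a helicase of small-subunit assembly, 0.87, and RRS1, a factor of large-subunit assembly, 0.89. The exon probe of DBP2 rests on slide position alone, and that of NOG2, also in the list, is uncertain. The fallen genes were GAR1 (-0.19) and SNU13 (-0.10), proteins of small nucleolar ribonucleoproteins, and RRP5 did not pass at 0.08. The GAR1 call was lost in 6 of 13 alternatives, among them without the 15 min pair (-0.13, adjusted p = 0.0938), without the 20 min pair (-0.12, adjusted p = 0.119) and with treated RNA in Cy5 (-0.11, adjusted p = 0.117). The SNU13 call was lost in 3 of 13, among them with treated RNA in Cy3 (-0.08, adjusted p = 0.134).

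Most nuclear RNA decay genes rose too, and cytoplasmic decay genes were mixed. Nuclear decay genes numbered 20, of which 15 rose and 1 fell, and their median was 0.25. AIR1, a zinc-knuckle protein of the TRAMP complex, had 0.32, 0.70, 1.13, 1.56, 1.91 and 2.17, a mean of 1.30 ± 0.067 (SE; adjusted p = 1.53e-05). The exosome genes RRP4 and CSL4 averaged 1.03 and 0.67. NAB3, an RNA-binding protein of early termination, fell to -0.30. Of 22 cytoplasmic decay genes 7 rose and 11 fell, and the median was -0.07. Among all 975 levels 36.0% rose and 31.3% fell, so the share of cytoplasmic decay genes that rose was near that of all levels. UPF3 of nonsense-mediated decay was highest at 0.51, and PAN2, PAT1 and DHH1, which act in deadenylation and decapping, were lowest at -0.35, -0.33 and -0.33.

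Splicing factor genes changed by small amounts. Of 87 splicing factor genes 38 rose and 13 fell, where 36.0% of all 975 levels rose and 31.3% fell. The splicing factor median was 0.06 against 0.02 over all genes. The highest were PRP43 (0.54), a helicase shared by spliceosome disassembly and ribosome assembly, PRP46 (0.43) and PML1 (0.43). The lowest were NAM8 (-0.37), LSM6 (-0.27) and SUB2 (-0.23). All 24 tRNA genes on the slide lie on the mitochondrial chromosome in RefSeq. Of these 0 rose and 17 fell, and the median was -0.26, and the lowest were the tRNAs listed as tL(UAA)Q (-0.50), tP(UGG)Q (-0.42) and tG(UCC)Q (-0.38). Of 8 translation factor genes 1 rose and 3 fell, a share near the 31.3% of all levels that fell. TEF4 of elongation factor 1B was lowest at -0.64. The median of the mitochondrial tRNA genes was -0.13, -0.35, -0.13, -0.21, -0.48 and -0.33 by minute in wild type. In the gcn2 deletion it was -0.08, 0.02, -0.26, -0.23, -0.62 and -0.43. The cause of the low tRNA values was not tested.

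Outside the lists, TEA1, a transcription factor gene, had 0.36, 0.73, 1.08, 1.71, 2.07 and 2.34, a mean of 1.38 ± 0.067 (SE; adjusted p = 1.12e-05). BAS1, an activator of histidine and purine genes, averaged 1.01 and POP4, a subunit of RNase P and RNase MRP, 0.95. Low levels outside the stress list were found in GAC1, a phosphatase subunit of glycogen metabolism (-1.22), OM14 (-1.13), CIN5, a stress transcription factor (-1.09), BCY1, the regulatory subunit of protein kinase A (-0.88), and GSP2, a Ran GTPase (-0.83). The steepest falls over time were GAC1 with -0.140 ± 0.020 per min (SE; adjusted p = 0.002), HSC82 with -0.135 ± 0.019 per min (SE; adjusted p = 0.00211) and CIN5 with -0.129 ± 0.023 per min (SE; adjusted p = 0.00427). GAC1 had 0.01, -0.10, -0.92, -1.85, -2.12 and -2.35.

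The response of wild type was then set against that of the gcn2 deletion in the same table. The difference of the means passed in 189 of 975 levels (19.4%), 93 higher (9.54%) and 96 lower (9.85%) in wild type, and in 28 of 228 indices (12.3%), 26 higher (11.4%) and 2 lower (0.877%). These calls rest on a fit with a slope over time for each course. Without slopes no gene passed in either measure, with 132 levels and 31 indices at an unadjusted p under 0.05.

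Amino acid control genes differed between the strains. HIS5 had -0.03, -0.05, 0.31, 1.25, 2.34 and 3.04 in wild type and -0.12, -0.03, 0.11, 0.23, 0.71 and 1.04 in the gcn2 deletion, a difference of 0.82 ± 0.075 (SE; adjusted p = 6.70e-05). MET28 had 0.01, 0.09, 0.09, 0.58, 1.76 and 2.48 in wild type and 0.14, 0.18, 0.13, -0.02, -0.28 and -0.35 in the gcn2 deletion, a difference of 0.87 ± 0.093 (SE; adjusted p = 1.36e-04). Wild type was higher in MET28 at 10, 15 and 20 min and lower at 2, 4 and 6 min. HIS4, with 0.72, and MET22, with 0.68, differed too. Of the 12 amino acid control genes 7 were higher and 0 lower in wild type. The difference for CUP1-2 was 0.76, and that of the helicase gene ECM32 0.58.

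The response of 7 chaperone and stress genes was lower in wild type than in the gcn2 deletion. In the gcn2 deletion the median of the list was -0.13, 0.00, -0.11, -0.03, -0.01 and 0.19 by minute. HSC82 had -0.06, -0.53, -0.88, -1.55, -2.59 and -2.25 in wild type and -0.17, -0.25, -0.33, -0.61, -0.40 and -0.14 in the gcn2 deletion and differed by -0.99 ± 0.147 (SE; adjusted p = 8.25e-04). SIS1 differed by -0.79 ± 0.164 (SE; adjusted p = 0.00595), SSA1 by -0.58 ± 0.084 (SE; adjusted p = 7.86e-04) and HSP104 by -0.90 ± 0.289 (SE; adjusted p = 0.0457). Of the 13 genes of the stress list 7 were lower and 1 higher in wild type. TYE7, a transcription factor of glycolytic genes, had 0.36, 0.41, 0.27, -0.28, -0.70 and -0.98 in wild type and 0.24, 0.55, 0.73, 0.71, 0.62 and 0.45 in the gcn2 deletion. GSP1, the main Ran GTPase gene, differed by -0.60. The direct arrays of treated gcn2 deletion over treated wild type share the treated wild type condition and are given only beside these values: HIS4 averaged -1.64 there, HIS5 -1.44, HSC82 1.46 and HSP104 1.14, while GSP1 averaged -0.09 and CUP1-2 -0.07.

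**Figure D5:**
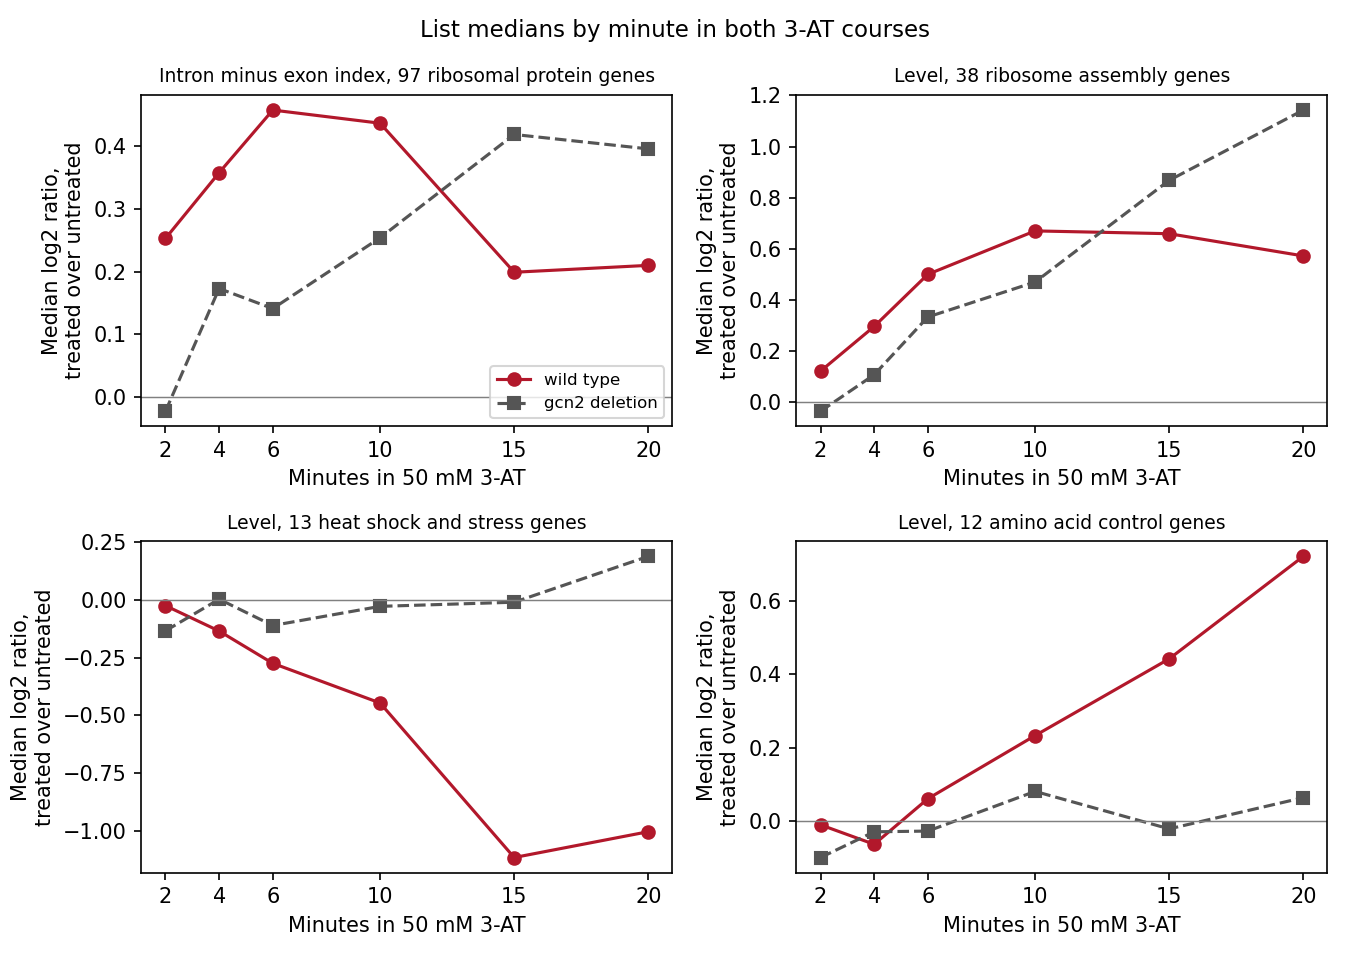
Median log2 ratio of treated over untreated cells (y axis) by minute in 3-AT (x axis) in wild type and in the gcn2 deletion, for the intron minus exon index of 97 ribosomal protein genes and for the levels of 3 gene lists. The wild type index is above that of the gcn2 deletion from 2 to 10 min and below it at 15 and 20 min, and the heat shock median reaches -1.12 in wild type and stays between -0.13 and 0.19 in the gcn2 deletion.

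For ribosomal protein introns the time courses of the strains crossed. The median index was 0.25, 0.36, 0.46, 0.44, 0.20 and 0.21 in wild type and -0.02, 0.17, 0.14, 0.25, 0.42 and 0.40 in the gcn2 deletion. Wild type was ahead at 2 to 10 min and behind at 15 and 20 min. The means differed in 10 of 97 ribosomal protein genes, all higher in wild type, and in 18 of 131 others, of which 16 were higher. A test of the slopes, added after these medians had been seen, found 43 of 228 indices (18.9%) to differ, 8 with a higher slope in wild type (3.51%) and 35 with a lower one (15.4%).

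Of the 97 ribosomal protein genes 31 had a lower slope in wild type and 0 a higher one, with a median difference of -0.034 per min, while of the 131 others 4 were lower and 8 higher, with a median of 0.001 per min. The median slope of the ribosomal protein genes was -0.012 per min in wild type and 0.022 per min in the gcn2 deletion. RPS10B had 0.41, 0.21, 0.53, 0.35, 0.03 and 0.06 in wild type and -0.48, 0.20, 0.17, 0.26, 0.43 and 0.66 in the gcn2 deletion, a slope difference of -0.068 ± 0.015 per min (SE; adjusted p = 0.0141). The count of 43 became 3 without the 20 min pairs, 5 without the 15 min pairs and 13 without the 6 min pairs, so it rests on few minutes. RPS10B was chosen after its values had been seen.

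Ribosome assembly genes crossed in level as well. Their median was 0.12, 0.30, 0.50, 0.67, 0.66 and 0.57 in wild type and -0.04, 0.11, 0.33, 0.47, 0.87 and 1.14 in the gcn2 deletion. Wild type was higher up to 10 min and lower at 15 and 20 min. The slope was lower in wild type in 18 of 38 and higher in 0, where 137 of 975 levels (14.1%) differed in slope, 58 higher (5.95%) and 79 lower (8.1%) in wild type. The count of 137 became 21 without the 20 min pairs, 48 without the 15 min pairs and 73 without the 6 min pairs.

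Single introns differed as well. RPS9B had an index higher in wild type by 0.38 ± 0.086 (SE; adjusted p = 0.0141) and RPS29B by 0.42 ± 0.100 (SE; adjusted p = 0.0159), with wild type higher at all 6 minutes in both. RPS9A differed by 0.52 ± 0.078 (SE; adjusted p = 0.00127), but its index in wild type changes sign with the dye order. CPT1, a cholinephosphotransferase, differed by 0.54 ± 0.099 (SE; adjusted p = 0.00285), the uncharacterized gene YNL050C by 0.48 and SAC6 by 0.40. The lower ones were DBP2 with -0.41 ± 0.074 (SE; adjusted p = 0.00285) and TAD3, a tRNA deaminase subunit, with -0.33. The direct arrays of treated gcn2 deletion over treated wild type did not show most of these index differences. There the index averaged 0.47 in RPS9A and 0.23 in RPS9B, higher in the gcn2 deletion, and 0.01 in RPS29B, -0.01 in CPT1, 0.02 in YNL050C, -0.04 in DBP2 and -0.02 in TAD3. SAC6, at -0.11, lay on the side of wild type. These arrays also hold any difference between the untreated strains.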

How the data were processed

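Total RNA of wild type and gcn2 deletion cells was compared on two-colour arrays, per the labels. The deposited values are 1 log2 ratio per spot, treated over untreated in both dye orders, with array medians near 0. The base of the log is taken as 2. Neither it nor the scanner software and the normalization is given in the sources used here. Each named probe had 4 spots, which were averaged, and the dye-swapped arrays of a minute were averaged next. All 1457 named probes matched RefSeq gene names through their Entrez IDs. Intron and exon probes were told apart from slide position and prp8-1 arrays, since no source used here names them. The junction probe was the remaining probe of the gene by slide position and was not checked in prp8-1. The ratio of each gene was fitted with limma 3.58.1 in R 4.3.3: an intercept at the mean time and a slope of centred time on 6 pairs, with 4 residual degrees of freedom before moderation. Wild type and gcn2 deletion were compared in 1 fit on 12 pairs with a slope for each course. P-values were adjusted by Benjamini-Hochberg over all genes of a measure, and 0.05 was the threshold. The fit was tested on simulated data. Tables were handled with Python 3.11.15, pandas 2.3.3 and numpy 2.4.6.

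The genes and lists were chosen with earlier results of these data known, and lists are given as counts and medians without a test. Genes were named by a fixed rule: the highest and lowest means with 1 sign at all 6 minutes, the steepest slopes, the largest strain differences and paralog differences, all amino acid and stress genes, and the extremes of each other list. Genes whose function did not match their list (ARP9, ERV1, VPS75, MMS2, MRK1, FES1 and GRX6) were taken out of the cytoskeleton, vesicle or mitochondrial lists after values had been seen. Items outside the rule, such as RPL22B, RPS9A, RPS27A, RPS10B and the RPL34, RPS29 and RPL13 pairs, were chosen after their values were seen. Alternatives were the fit without a slope, each dye order, each pair left out, early or late minutes, median centring, spot medians, and the minute as a block.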

Additional observations from a re-analysis of the deposited data

Results flagged for a closer look

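In 6 results 1 of the 6 minutes lay far from the others, by a test that flags about 1 in 20 groups by chance. The number of groups screened is not given here, so the 6 cannot be set against the number due to chance. The 2 min values of the RPS24A intron minus exon index (0.552) and of the RPL22B junction minus exon index (-0.513) were the smallest in size of their genes. PML1, a splicing factor, had a 2 min level of 0.247, below its other minutes. The ACT1 intron minus exon index stood at -0.427 at 20 min, below its other minutes. The median junction probe was -0.142 at 20 min over the 97 ribosomal protein genes and -0.143 over the large-subunit genes, each the lowest of its course. The large-subunit genes are part of the 97. Over the 97 this median was -0.222 with treated RNA in Cy5 and -0.055 with treated RNA in Cy3.

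Responses that differed between wild type and the gcn2 deletion, by limma on the difference itself, were found in 189 levels and 28 intron minus exon indices by the mean, and in 137 levels and 43 indices by the slope. By the mean level MET28 (0.867), HIS5 (0.82), CUP1-2 (0.756), HIS4 (0.721), MET22 (0.678) and ECM32 (0.582) were higher in wild type. HSC82 (-0.993), HSP104 (-0.9), SIS1 (-0.793), TYE7 (-0.701), GSP1 (-0.599) and SSA1 (-0.579) were lower. By the mean index CPT1 (0.542), RPS9A (0.519), YNL050C (0.479), RPS29B (0.424), SAC6 (0.399) and RPS9B (0.377) were higher in wild type, and DBP2 (-0.411) and TAD3 (-0.333) lower.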

How the results depend on the processing

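Early minutes and the slope term mattered most. With 2, 4 and 6 min alone the calls numbered 40 levels (365 at an unadjusted p under 0.05), 94 intron minus exon indices and 2 junction minus exon indices (73 unadjusted), and the lower power of 3 pairs is part of that alternative. Without a slope for each course 0 levels and 0 indices differed between wild type and the gcn2 deletion by limma (132 and 31 unadjusted). With 1 pair left out the calls ran from 570 to 673 levels, 144 to 156 intron minus exon indices, 82 to 120 junction minus exon indices, 25 to 30 paralog pairs, 298 to 423 slopes of levels and 27 to 53 slopes of indices, the lowest without 4 min, with 28 without 20 min. The added tests of slopes between strains gave 21 to 130 levels and 3 to 48 indices.

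The labels share only the minute between the 2 courses, so the minute was not taken as a pairing. Same-minute deviations from the mean of each course correlated at 0.02 to 0.59. These deviations hold any change over time common to both courses, so the correlations cannot settle whether the minutes are paired. With the minute as a replicate block 170 levels and 32 indices differed in the mean, and 114 levels and 63 indices in the slope.

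Of 1796 alternative values for 168 named gene results, 1630 kept direction and side of the threshold, 130 lost the call, 11 gained one and 25 changed sign. With 2, 4 and 6 min alone the sign changed for MET22 (-0.17), HIS2 (-0.03), GCN5 (-0.013), CUP1-1 (-0.068), SSA3 (-0.03) and tC(GCA)Q (-0.057), and for the indices of RPS26B (0.114) and RPS27A (0.096). With 10, 15 and 20 min alone it changed for GCN2 (0.016) and the indices of RPL22B (-0.073) and RPS9A (-0.073). With treated RNA in Cy5 it changed for GCN1 (0.033), GCN2 (0.063), GCN3 (0.021), GCN20 (0.087), RRP5 (-0.082) and tC(GCA)Q (-0.024), and for the indices of RPS9A (-0.232), RPS26B (0.079) and RPS27A (0.002). With treated RNA in Cy3 it changed for CUP1-1 (-0.174) and SSB1 (0.012). With 1 pair left out it changed for GCN1 (-0.07 to 0.022, above 0 with 0.008 without 4 min and 0.022 without 15 min) and GCN2 (-0.091 to 0.028, above 0 without 10 min). The cause was not tested.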
